A study of Mus musculus with 87 samples.

Results

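The regions described here are SUZ12 peaks under 4000 bp wide that overlap, by 1 bp or more, at least 1 JARID2 peak and at least 1 PCL2 peak in mouse embryonic stem cells. Of 7796 SUZ12 peaks, 3440 met these criteria and are called narrower shared peaks. They covered 6.94 Mb in all. The other SUZ12 peaks were 481 shared peaks of 4000 bp or more (wide shared peaks), 3665 peaks that overlapped PCL2 but not JARID2, 14 that overlapped JARID2 but not PCL2, and 196 that overlapped neither. The regions were chosen by measured values, the widths and positions of the peaks, so width and overlap are given below as a description with no test.

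The series has 87 samples, 63 of them chromatin immunoprecipitations and 24 of them RNA libraries. Its cells were wild type (WT) or knockout (KO). The knockouts were of SUZ12 or of the accessory subunits AEBP2, EPOP, JARID2 and PCL1 to PCL3, alone or combined. Some SUZ12 knockout cells carried Flag-tagged SUZ12, or the forms labelled SUZ12-C2 and SUZ12-DeltaC2, put back. All cells were grown on gelatin in 2i medium, which holds them in the naive state. The label gives the strain of the immunoprecipitation samples as 129B6F1. PCL2 was precipitated with an antibody to Mtf2, the gene name of PCL2. The peak lists for SUZ12, JARID2 and PCL2 are 1 list per protein and name no sample, genotype or replicate, so no level, replicate spread or knockout comparison could be given for a region. Every difference between kinds of peak below is therefore stated as counts, medians and Wilson 95% intervals, which cover counting error only; no difference between kinds of peak was tested.

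SUZ12 is a core subunit of Polycomb repressive complex 2 (PRC2), which methylates lysine 27 of histone H3 and keeps developmental genes silent in stem cells. The core binds its accessory subunits in alternative forms: one carries a PCL protein, which binds unmethylated CpG-rich DNA, and the other carries JARID2 with AEBP2, and JARID2 can bind the ubiquitin mark that PRC1 places on histone H2A. In embryonic stem cells PRC2 occupies CpG islands, and most such islands lie at the starts of genes.

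Promoter sequences of 6 genes at narrower shared peaks are shown because they span what the regions hold: a neuronal regulator, a secreted ligand, a potassium channel, a naive pluripotency gene, a gene for a PRC2 subunit and a gene inside a dense array of peaks. The 6 were chosen after their values were seen. Each is the 250 bases before the gene start on the gene's strand, from RefSeq on GRCm38 (the mm10 coordinates), with each CpG in capitals.
Neurod1, chr2:79456637-79456886, minus strand: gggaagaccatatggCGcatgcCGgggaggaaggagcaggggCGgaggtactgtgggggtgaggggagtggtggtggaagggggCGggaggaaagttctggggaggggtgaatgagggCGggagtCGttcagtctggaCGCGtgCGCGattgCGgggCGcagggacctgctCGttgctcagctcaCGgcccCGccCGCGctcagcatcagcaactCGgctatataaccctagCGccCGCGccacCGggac
Bmp4, chr14:46390670-46390919, minus strand: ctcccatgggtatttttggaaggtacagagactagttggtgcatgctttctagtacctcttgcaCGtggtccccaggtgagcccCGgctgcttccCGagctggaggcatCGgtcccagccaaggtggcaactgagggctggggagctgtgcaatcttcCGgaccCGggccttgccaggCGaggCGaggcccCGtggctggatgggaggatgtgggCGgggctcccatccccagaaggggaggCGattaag
Kcnc1, chr7:46396218-46396467, plus strand: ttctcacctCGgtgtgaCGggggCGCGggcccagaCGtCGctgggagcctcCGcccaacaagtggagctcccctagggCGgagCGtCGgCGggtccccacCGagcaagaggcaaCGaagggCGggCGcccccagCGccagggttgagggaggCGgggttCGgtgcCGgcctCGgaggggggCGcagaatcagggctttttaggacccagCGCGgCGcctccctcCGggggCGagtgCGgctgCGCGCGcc
Esrrb, chr12:86421394-86421643, plus strand: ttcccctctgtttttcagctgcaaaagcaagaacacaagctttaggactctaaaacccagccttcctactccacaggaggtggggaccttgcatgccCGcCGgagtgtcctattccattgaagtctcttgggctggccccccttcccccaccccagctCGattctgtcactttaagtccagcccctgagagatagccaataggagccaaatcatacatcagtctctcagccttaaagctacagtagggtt
Phf19, chr2:34913977-34914226, minus strand: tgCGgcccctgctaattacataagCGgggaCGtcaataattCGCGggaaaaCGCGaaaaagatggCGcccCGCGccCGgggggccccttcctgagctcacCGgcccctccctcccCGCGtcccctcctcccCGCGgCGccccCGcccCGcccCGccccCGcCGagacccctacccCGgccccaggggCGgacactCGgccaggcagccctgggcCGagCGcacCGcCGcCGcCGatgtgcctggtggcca
Ifnz, chr4:88781881-88782130, plus strand: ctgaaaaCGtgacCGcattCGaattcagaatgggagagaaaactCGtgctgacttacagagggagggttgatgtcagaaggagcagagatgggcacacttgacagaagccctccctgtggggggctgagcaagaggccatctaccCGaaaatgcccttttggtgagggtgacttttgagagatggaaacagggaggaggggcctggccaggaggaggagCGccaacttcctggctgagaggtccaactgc
The stretch before Neurod1, a transcription factor that drives neuronal differentiation, held 22 CpGs, that before Kcnc1 (a voltage-gated potassium channel) 30 and that before Phf19 (the gene of PCL3) 31. Upstream of Bmp4, a secreted growth factor, there were 11. The internal start of Esrrb, a transcription factor of naive pluripotency, had 3 in the stretch before it, and Ifnz, an interferon gene, had 6. These 6 stretches therefore ran from 3 to 31 CpGs per 250 bases, and the counts over all promoter windows are given below.

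Narrower shared peaks were 293 to 3991 bp wide, with a median of 1938.5 bp (interquartile range 1430 to 2531). Wide shared peaks had a median of 5266 bp, and peaks with PCL2 and no JARID2 a median of 1052 bp. JARID2 overlap became more frequent with width: 14.1% of SUZ12 peaks under 1000 bp (307 of 2176) met the criteria, 46.9% from 1000 to 2000 bp (1512 of 3222), 81.8% from 2000 to 3000 bp (1152 of 1409) and 94.0% from 3000 to 4000 bp (469 of 499). A wider peak has more bases in which a 1-bp overlap can fall, and the part this plays was not tested.

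**Figure D1:**
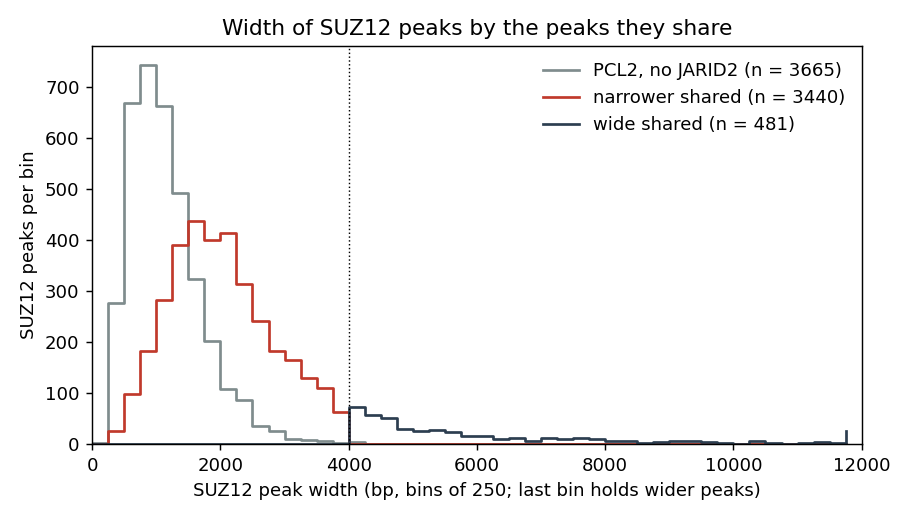
Number of SUZ12 peaks (vertical axis) by peak width in bins of 250 bp (horizontal axis), as 1 line for each kind of peak; the dotted line is the 4000 bp limit and the last bin holds all wider peaks. Peaks with PCL2 and no JARID2 (median 1052 bp) lie to the left of the narrower shared peaks (median 1938.5 bp), and the limit falls within a continuous tail.

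Within a narrower shared peak, PCL2 peaks filled most of the SUZ12 width and JARID2 peaks a shorter stretch near its middle. The whole lists held 20003 PCL2 peaks and 4991 JARID2 peaks. The part this difference in list size plays in the cover, here and at gene starts below, was not tested. PCL2 peaks covered a median of 94.3% of the SUZ12 peak (interquartile range 85.3 to 100) and JARID2 peaks 63.4% (44.6 to 81.5). In base pairs the medians were 1748 under PCL2, 1114 under JARID2 and 1085.5 under all 3 proteins. PCL2 covered more of the region than JARID2 in 3091 of 3440 (89.9%), and JARID2 covered more in 277 (8.05%). In wide shared peaks the median cover was 96.2% for PCL2 and 84.4% for JARID2. In peaks without JARID2 it was 91.4% for PCL2.

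Most regions had a simple make-up. A single JARID2 peak and a single PCL2 peak were found in 2956 (85.9%). JARID2 was split over 2 peaks in 292 regions and over 3 in 8, and PCL2 over 2 peaks in 217 and over 3 in 6. For position, several peaks of the same protein were taken as a single stretch from first start to last end, gaps included. The JARID2 stretch lay wholly inside the SUZ12 peak in 2363 regions (68.7%) and wholly inside the PCL2 stretch in 2526 (73.4%). By contrast, the PCL2 stretch lay wholly inside SUZ12 in 727 (21.1%). The PCL2 stretch spanned the whole SUZ12 peak in 1089 regions (31.7%) and the JARID2 stretch did so in 158 (4.59%). The centre of the JARID2 stretch was a median of 168.5 bp from the SUZ12 centre and that of the PCL2 stretch 129 bp. Both stretches can reach outside the SUZ12 peak. JARID2 cover was under 10% of the region in 16, and in 4 regions JARID2 and PCL2 touched the SUZ12 peak at places that had no base in common. By width band (under 1000, 1000 to 2000, 2000 to 3000 and 3000 to 4000 bp), the median JARID2 cover was 66.4, 60.3, 63.1 and 71.4%, and the median PCL2 cover 99.8, 94.9, 93.3 and 93.9%, so JARID2 cover was lowest in the second band and highest in the last. Pearson's r across the 3440 regions was 0.06 for JARID2 (Spearman's rho 0.06) and -0.01 for PCL2 (rho -0.10), over regions that share the same libraries.

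A protein-coding gene start, or either end where no start is listed, lay in or within 1 kb of 2154 narrower shared peaks (62.6%, 61.0 to 64.2). Gene position was not part of the criteria. The share was 78.8% (74.9 to 82.2) for wide shared peaks and 53.5% (51.9 to 55.1) for peaks with PCL2 and no JARID2. It was higher in wider bands of each kind of peak: among narrower shared peaks it was 43.0% under 1000 bp, 59.7% from 1000 to 2000 bp, 67.3% from 2000 to 3000 bp and 73.6% from 3000 to 4000 bp, and among wide shared peaks 74.5% from 4000 to 6000 bp and 86.3% from 6000 bp. At matched width, peaks without JARID2 gave 46.1%, 59.5%, 60.3% and 76.7% in the 4 bands under 4000 bp, the last over 30 peaks. In the band from 1000 to 2000 bp, which holds 1512 of the narrower shared peaks, the shares with and without JARID2 were almost equal. From 2000 to 3000 bp the share was higher with JARID2. Under 1000 bp and from 3000 to 4000 bp it was higher without JARID2. The part width plays in the difference between the pooled shares was not tested.

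An annotated gene start or end was inside 1951 of the narrower shared peaks (56.7%), and 69 of them were near 2 genes or more. The other 1286 had no such start or end of a protein-coding gene within 1 kb. Of these, 704 lay in the body of a protein-coding gene and 582 outside any. Of the latter, 176 were in a long non-coding RNA gene. The nearest protein-coding gene start (or end, for genes without a start in the table) was a median of 12092 bp away for these 1286 (interquartile range 4275.5 to 43377), over 10 kb for 705 and over 100 kb for 122. A long non-coding RNA start was within 1 kb of 121 of them. By gene, 2115 of 21887 protein-coding genes (9.66%) had a narrower shared peak, and no wide one, within 1 kb. A wide shared peak was within 1 kb of 400 (1.83%). A further 1921 (8.78%) had a peak with PCL2 and no JARID2, and no shared peak of either kind. For 24 genes a narrower shared peak lay beside a wide one.

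Where the gene start is given by the promoter table, regions with a start inside reached further into the gene than away from it. In 1497 narrower shared peaks with a start inside, the peak centre was downstream of the start in 1192 (79.6%, 77.5 to 81.6). Over all 1497, including those centred upstream, the median position of the centre was 262 bp downstream (interquartile range 54 to 509.5). The peak extended a median of 707 bp upstream and 1265 bp downstream. The JARID2 centre was a median of 307 bp and the PCL2 centre 288.5 bp downstream of the start. Relative to the SUZ12 centre, the JARID2 centre was further into the gene in 835 regions and nearer the upstream side in 659, with a median shift of 32.5 bp, and the PCL2 centre in 791 and 703, with a median of 13 bp. Peaks with PCL2 and no JARID2 had their centre downstream in 79.1% (median over all 1288, 188 bp downstream), and wide shared peaks in 66.5% (median over all 257, 598.5 bp downstream).

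At the start itself, 99.0% of these 1497 starts were under a PCL2 peak and 76.8% under a JARID2 peak. The JARID2 share was 84.1% at 200 bp into the gene, and 1000 bp away it was 47.4% downstream against 13.2% upstream. For SUZ12 the shares 1000 bp away were 72.6% downstream and 29.9% upstream, so both proteins leaned to the gene side.

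**Figure D2:**
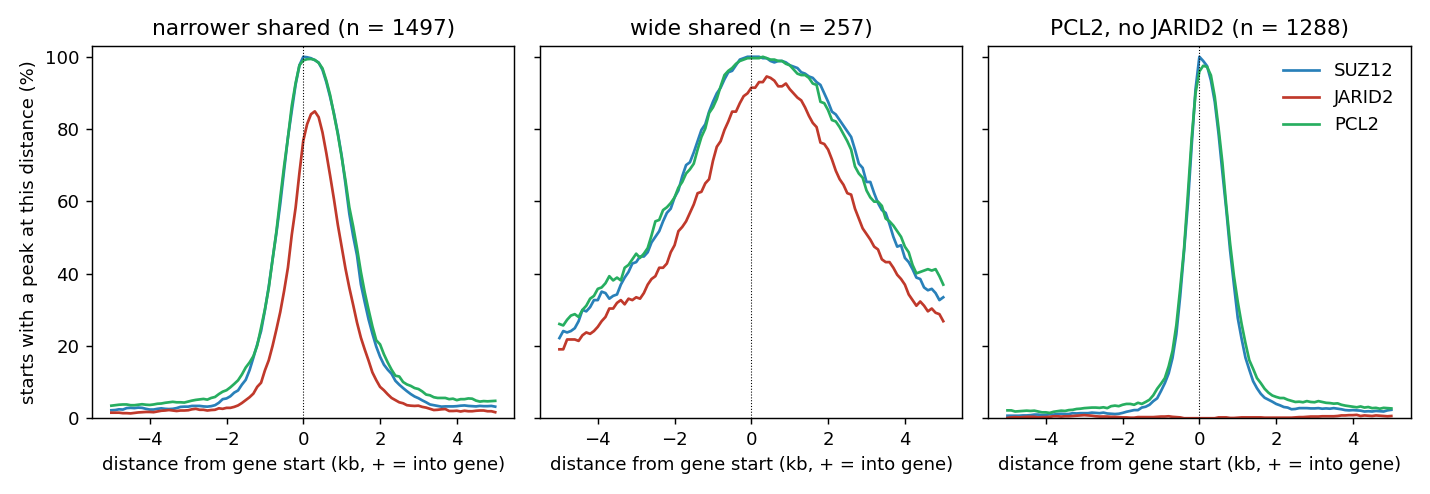
Percentage of gene starts that lie under a SUZ12, JARID2 or PCL2 peak (vertical axis) at each distance from the start in kb, positive into the gene (horizontal axis), for starts inside narrower shared peaks, wide shared peaks and peaks with PCL2 and no JARID2. SUZ12 is 100% at 0 because a start had to be inside the SUZ12 peak; in the narrower shared peaks the JARID2 curve is lower than the PCL2 curve and all 3 reach further into the gene than upstream.

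Promoters in narrower shared peaks were rich in CpG. Their windows, from 250 bases before to 50 bases after the start (1704 windows of 1495 genes), held a median of 23 CpGs (interquartile range 15 to 32) against 10 (3 to 22) in 17750 windows with no SUZ12 peak. The median observed-to-expected CpG ratio was 0.73 against 0.48, and G and C made up 66% against 54.3% of the bases. A ratio of 0.6 or more, a usual limit for CpG islands, was found in 70.2% of the windows in narrower shared peaks, 73.0% in wide shared peaks, 77.4% in peaks with PCL2 and no JARID2, 42.5% with no SUZ12 peak and 47.7% of all 21263 windows. No CpG at all was found in 1 of the 1704 windows in narrower shared peaks and in 984 of all 21263 windows. The counts were 0 of 315 in wide shared peaks and 0 of 1456 in peaks with PCL2 and no JARID2.

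CpG counts differed little with width from 1000 bp upwards and were slightly lower where JARID2 covered more of the region. The median count was 16 in the 75 windows of peaks under 1000 bp, 22 from 1000 to 2000 bp, and 24 both from 2000 to 3000 bp and from 3000 to 4000 bp. Across the 1704 windows, which share peaks and genes, Pearson's r of width and CpG count was 0.13 (Spearman's rho 0.13). By JARID2 cover the median was 27 below 25%, 24 from 25 to 50%, 23 from 50 to 75% and 22 from 75%, and r was -0.08 (rho -0.07). Peaks with PCL2 and no JARID2 had medians of 24 and 25 in the bands under 1000 bp and from 1000 to 2000 bp, against 16 and 22 in the narrower shared peaks. From 2000 to 3000 bp the medians were 26 without JARID2 and 24 in the narrower shared peaks. From 3000 to 4000 bp they were 23, over only 20 windows, and 24.

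**Figure D3:**
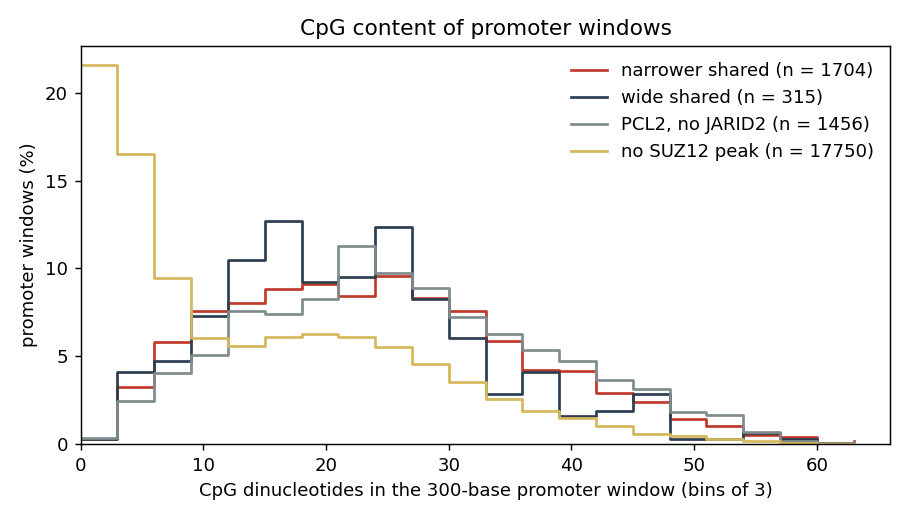
Percentage of promoter windows (vertical axis) by number of CpG dinucleotides in the 300-base window, in bins of 3 (horizontal axis), for windows in narrower shared peaks, in wide shared peaks, in peaks with PCL2 and no JARID2, and with no SUZ12 peak. The 3 kinds of SUZ12 peak overlap, with medians of 23, 21 and 25, and windows with no SUZ12 peak pile up at the low end (median 10).

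4 short words were searched on both strands of the windows. GCG, which holds a CpG, was in 99.6% of windows in narrower shared peaks, 98.4% in wide shared peaks, 99.5% with PCL2 and no JARID2 and 85.2% of all windows. The purine repeat GAGAGA was in 22.7% of windows in narrower shared peaks, near the 22.4% of all windows, in 35.6% in wide shared peaks and in 20.5% with PCL2 and no JARID2. CACGTG, the E-box read by Myc and related factors, was in 8.92% of windows in narrower shared peaks, 6.67% in wide shared peaks, 9.07% with PCL2 and no JARID2 and 7.84% of all. CCATNTT, the core of the YY1 motif, was in 5.63% of windows in narrower shared peaks, 5.08% in wide shared peaks, 7.90% with PCL2 and no JARID2 and 15.1% of all. These shares were not adjusted for base composition, which differs between the groups as given above. The words can share no more than an end base with each other. Among the 6 promoters printed above, the full windows of Esrrb and Ifnz had GAGAGA, that of Bmp4 had CACGTG and that of Phf19 had CCATNTT.

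The genes at narrower shared peaks were described with 22 lists, 433 of whose 435 gene names were found in the annotation. Against a background of 9.66% of all protein-coding genes, the list of ion channels and neuronal adhesion genes had 20 of 40 (50%) at a narrower shared peak, with 7 at a wide one and 9 at PCL2 without JARID2. For regulators of neural fate the order was the reverse: 7 of 32 (21.9%) had a narrower shared peak and 22 (68.8%) a wide one. Hox genes, which set position along the body axis, had 12 of 39 narrower and 24 wide.

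**Figure D4:**
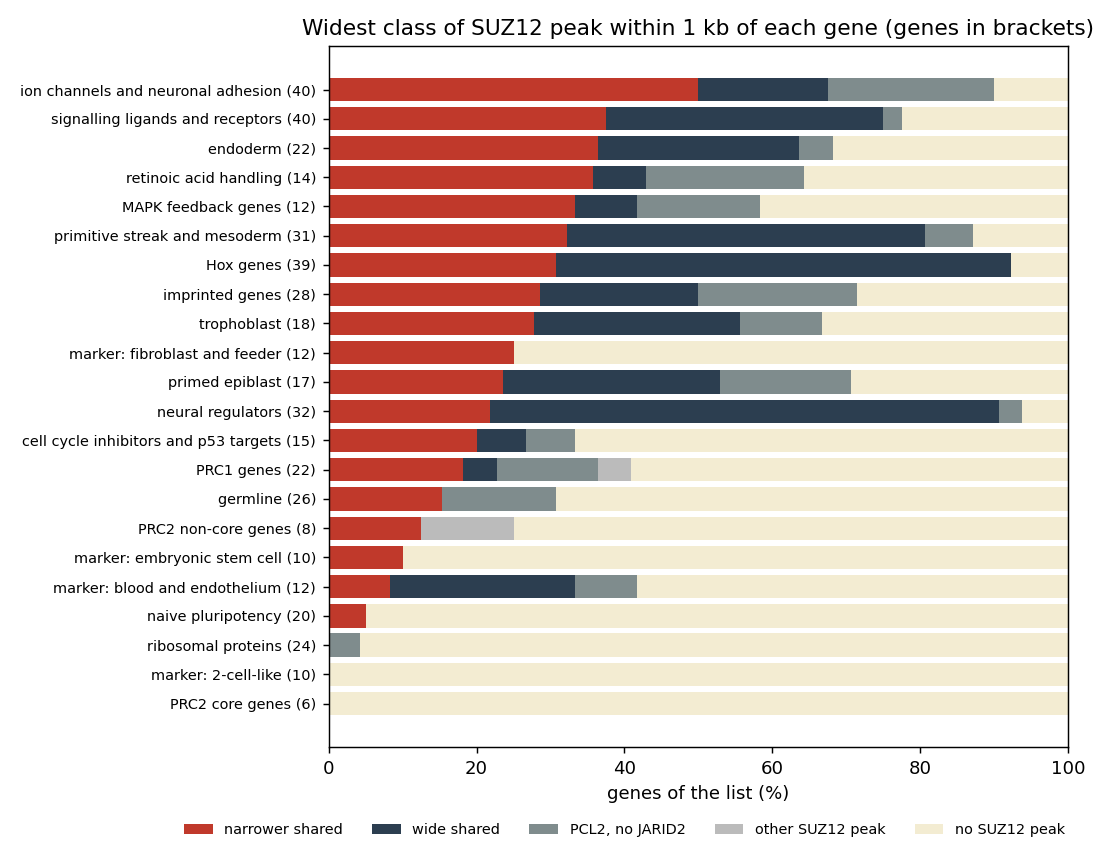
Percentage of the genes of each list (horizontal axis; matched genes in brackets) by the kind of SUZ12 peak within 1 kb, a gene near several kinds being counted once, as wide before narrower shared. The red share, narrower shared peaks, is 50% for ion channels and neuronal adhesion genes and 0% for the PRC2 core, ribosomal protein and 2-cell-like lists.

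Among neural regulators the 7 genes were Hes5, Isl1, Neurod1, Nkx6-2, Olig3, Pax3 and Sox3. At Neurod1 the SUZ12 peak (chr2:79455700-79457076) was 1377 bp, with 95.6% of it under JARID2 and 100% under PCL2, and lay over the promoter printed above. Olig3, a factor of the dorsal spinal cord, had a 2026-bp peak under 87.3% JARID2. Nkx6-2, a homeodomain factor of the ventral neural tube, had 2 regions of 2233 and 2247 bp next to each other. Pax6, the eye and forebrain regulator, had a narrower shared peak of 3168 bp (95% under JARID2) beside a wide one and was counted as wide. JARID2 cover at these regulators was above the median of 63.4% for most: only Hes5, a Notch target, was below it with 62.9%.

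Among the 12 Hox genes were Hoxb1, Hoxb13, Hoxc5, Hoxc6, Hoxc8, Hoxc9, Hoxc10, Hoxd1, Hoxd3, Hoxd4 and Hoxd8, so 5 of them were in the Hoxc cluster. There, 12 narrower shared peaks and 3 other SUZ12 peaks followed each other over 66440 bp (chr15:102949477-103015916) with no gap over 5 kb. JARID2 cover ranged from 98.8% of the 1272-bp region at Hoxd3 to 25.1% of a 2731-bp region next to Hoxc10. Hoxb1, the most 3′ gene of its cluster, had a region of 3079 bp with 55.1% under JARID2.

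Of 31 regulators of the primitive streak and mesoderm, 10 had a narrower shared peak and 15 a wide one. The 10 included Eomes (3607 bp, 99.9% under JARID2) and Mixl1 (1727 bp, 54.3%), which act in the streak, Mesp1 (2019 bp, 69.3%) of the earliest cardiac cells, and the T-box genes Tbx4, Tbx5 and Tbx20. Tbx5, a heart and forelimb factor, had 16.4% under JARID2 against 90% under PCL2. In the endoderm list 8 of 22 had a narrower shared peak and 6 a wide one. The 8 were the regulators Gata4, Sox7, Foxa1 and Pdx1, the chemokine receptor Cxcr4, and the basement membrane genes Lamb1, Col4a1 and Col4a2. Col4a1 and Col4a2, which are transcribed away from each other, shared 1 region of 3271 bp with both starts inside.

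Trophoblast genes had 5 of 18 (Eomes, Ascl2, Esx1, Fgfr2 and Bmp4) at narrower shared peaks, and genes of the primed epiblast 4 of 17. These 4 were Fgf5, Sall2, Zic2 and Sox3. Fgf5, a growth factor used as a mark of the primed state, had a 3322-bp region with 83.4% under JARID2. Zic2, a zinc finger factor, had 3 regions of 1360 to 2375 bp with 13.6, 38.8 and 50.8% under JARID2. Otx2, a head organiser factor, had a 788-bp narrower region wholly under JARID2 beside a wide one.

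The lists of naive pluripotency genes and of markers are short. Their counts are read beside the 9.66% of all protein-coding genes with a narrower shared peak and the 79.4% with no SUZ12 peak. Of 20 naive pluripotency genes 1, Esrrb, had a narrower shared peak and the other 19 no SUZ12 peak of any kind. The Esrrb region (chr12:86420566-86423979) was 3414 bp wide, 62.9% under JARID2 and 91.9% under PCL2, at 1 of 2 starts in the table, and its window had 7 CpGs and an observed-to-expected ratio of 0.32. None of 24 ribosomal protein genes and none of 10 genes of the 2-cell-like state had a narrower shared peak. Of the embryonic stem cell markers, 1 of 10 (Esrrb) had one, of fibroblast and feeder cell markers 3 of 12 (Thy1, Fbn1 and Twist2), and of blood and endothelium markers 1 of 12 (Kdr). Since RNA could not be joined to gene names, the expression of these markers was not checked.

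Signalling genes were split evenly. Of 40 ligands and receptors, 15 had a narrower shared peak and 15 a wide one. The 15 at narrower shared peaks were the Wnt ligands Wnt3a, Wnt6 and Wnt10a, the hedgehog ligand Dhh, the TGF-beta family ligands Bmp2, Bmp4, Bmp7, Lefty2 and Inhba, the BMP antagonists Nog and Chrd, the Notch ligands Jag1 and Jag2, Fgf15, and Kdr, a receptor for vascular endothelial growth factor. Bmp4 had a 3742-bp region (82.8% under JARID2) whose centre was 1623 bp into the gene. Jag1 and Jag2 were far apart in form: 521 bp with 81.0% under JARID2 at Jag1 and 3622 bp with 8.89% at Jag2. PCL2 covered 100 and 72.0% of the same regions.

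In the channel and adhesion list, potassium channels (such as Kcnc1, Kcnk4 and Kcnh3), a calcium channel (Cacna1i), GABA receptors (such as Gabra5 and Gabbr2), the vesicular GABA transporter Slc32a1 and cadherins (Cdh4 and Cdh22) were among the 20. Their regions were 1430 to 3975 bp wide, and JARID2 cover ran from 10.4% at Kcnh3 to 92.5% at Sstr1, a somatostatin receptor. At Kcnc1, whose promoter is printed above, the region was 3108 bp, 45.3% under JARID2 and 96.7% under PCL2. Of the same list, 7 genes had a wide peak, among them the protocadherins Pcdh8, Pcdh10 and Pcdh17.

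Retinoic acid handling genes had 5 of 14 at narrower shared peaks: the synthesis enzymes Aldh1a2 and Aldh1a3, the carriers Rbp4 and Crabp1 and the degrading enzyme Cyp26c1. Imprinted genes had 8 of 28, namely Phlda2, Kcnq1, Ascl2, Dlk1, Peg10, Sgce, Ndn and Magel2. Peg10 and Sgce shared 1 region of 3067 bp. Germline genes had 4 of 26, of which Sycp1 builds the synaptonemal complex, Tdrd1 acts in the piRNA pathway and Meioc in meiosis; the region of Slc25a31 was the narrowest of the 4 at 1016 bp. Feedback and response genes of the MAPK pathway, which the 2i medium inhibits, had 4 of 12: Dusp5, Spry4, Egr1 and Fos. At Fos, an immediate early gene, 27.3% of a 1764-bp region was under JARID2. Cell cycle inhibitors and p53 targets had 3 of 15 (Cdkn2c, Trp73 and Gadd45g).

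Counts for the Polycomb genes themselves are read against the same 9.66% and 79.4% of all protein-coding genes. None of the 6 PRC2 core genes had a SUZ12 peak within 1 kb. Of 8 non-core genes 1, Phf19, had a narrower shared peak, of 2353 bp, 65% under JARID2 and 96.3% under PCL2, centred 39.5 bp from the start. Of 22 PRC1 genes, 4 had a narrower shared peak, among them Cbx2, which reads the H3K27me3 mark, Pcgf5, a subunit of variant PRC1, and Yaf2. Cbx8, near Cbx2 on chromosome 11, had a 1243-bp narrower region (93.5% under JARID2) and a wide peak. JARID2 cover was 85.6% at Pcgf5, 50.8% at Cbx2 and 41.8% at Yaf2.

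Narrower shared peaks overlapped 27 of 1228 miRNA genes (2.20%), 584 of 12727 long non-coding RNA genes (4.59%), 5 of 408 tRNA genes, 1 of 1004 snRNA genes and 0 of 1340 snoRNA genes. Gene lengths differ between these kinds and were not adjusted for. Of 1005 miRNA hairpins with sequences, 23 were in a narrower shared peak, 12 in a wide one and 17 in a peak with PCL2 and no JARID2. The mature sequences of 6 with described roles are shown to let the shared seed be seen, with the seed (bases 2 to 8) in capitals, from RefSeq on GRCm38.
miR-193a-3p: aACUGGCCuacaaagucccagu
miR-193b-3p: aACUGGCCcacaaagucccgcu
miR-196a-5p: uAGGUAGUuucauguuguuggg
miR-203-3p: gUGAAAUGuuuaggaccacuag
miR-128-3p: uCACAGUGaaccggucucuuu
miR-449c-5p: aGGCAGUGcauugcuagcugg
Only miR-193a-3p and miR-193b-3p had a seed in common, ACUGGCC, among the 35 different seeds of the mature arms in these regions. They lay on chromosomes 11 and 16, in regions of 2185 and 2377 bp with 65.2 and 42.4% under JARID2. The hairpin of miR-196a-5p lay in a 2731-bp region in the Hoxc cluster, where 25.1% was under JARID2 and 100% under PCL2. That of miR-203-3p, a miRNA of skin differentiation, lay in a region of 2400 bp, that of miR-449c-5p, of ciliated cells, in 2679 bp, and that of miR-128-3p, a neuronal miRNA, in only 419 bp.

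Most narrower shared peaks stood alone, but 2 places held them in dense arrays. When SUZ12 peaks with gaps of 5 kb or less were joined into runs, 2477 narrower shared peaks (72.0%) stood in a run of their own. The longest run lay between Hrh1 and Atg7 (chr6:114489863-114637602), where no gene is annotated: 54 SUZ12 peaks, 45 of them narrower shared, 5 wide and 4 with PCL2 and no JARID2, along 147740 bp with 66 JARID2 and 59 PCL2 peaks. The 54 SUZ12 peaks there had a regular spacing, with a median of 2452 bp from start to start (interquartile range 2341 to 2648). The 45 narrower shared peaks among them had a median width of 2106 bp.

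The other array (chr4:88771581-88807172) covered 13 annotated genes, 12 of them protein-coding: the interferon gene Ifnz and 11 predicted genes. It held 16 narrower shared peaks among 17 SUZ12 peaks over 35592 bp, with 21 JARID2 and 19 PCL2 peaks and a median spacing of 1759 bp (1445.5 to 2903.75). The promoter windows of its 12 genes had a median of 16.5 CpGs (6 to 29). Of 66 pairs of these windows, compared base by base without gaps, 16 were at least 90% identical and 7 wholly identical, and 11 of the 12 genes belonged to such a pair. The median identity over all 66 pairs was 27.7%. The placing of reads from repeated sequence is a step not given in the sources used here, and its part in either array was not tested. The arrays hold 61 regions (1.77%). Without them there were 3379 regions, and a gene start or end lay within 1 kb of 63.3%. The median width was then 1933 bp, the median JARID2 cover 63.6% and the median CpG count per window 23.

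**Figure D5:**
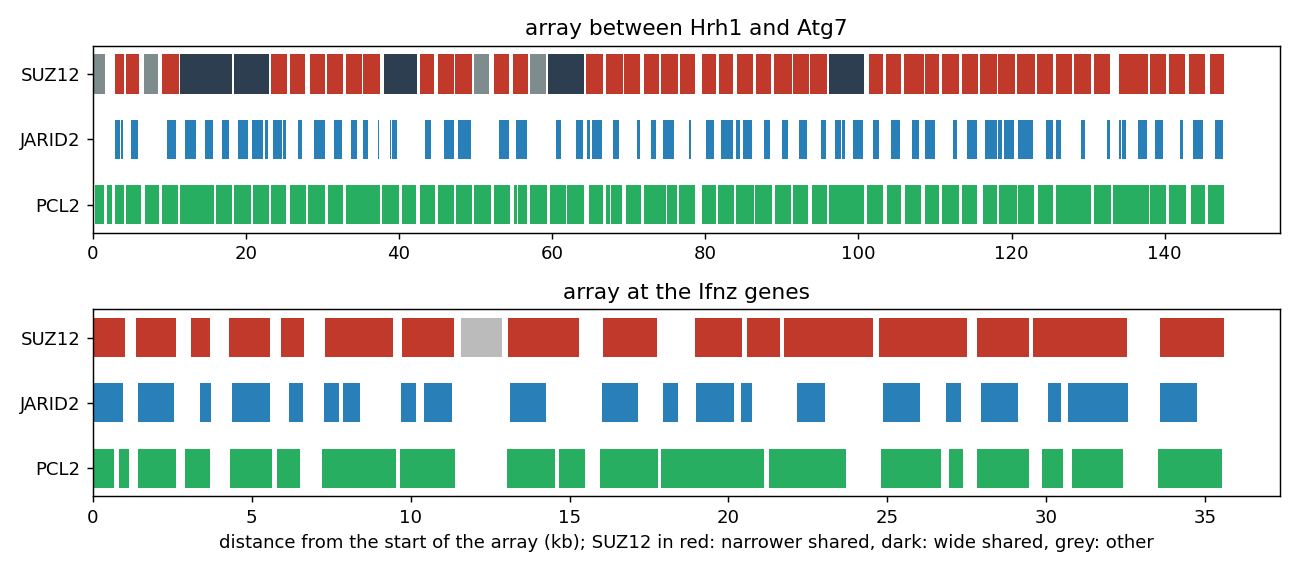
Peaks of SUZ12, JARID2 and PCL2 (rows) as bars along the 2 arrays, by distance from the start of each array in kb (horizontal axis). SUZ12 bars are red for narrower shared peaks (45 in the upper panel, 16 in the lower), dark for wide ones and grey for the rest; in the upper panel they recur with a median spacing of 2452 bp.

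The regions just inside and just outside the criteria were as follows. The 3 widest narrower shared peaks were at Kcng3 (3991 bp, 75.9% under JARID2), a potassium channel subunit, in Sox1ot (3986 bp, 37.8%), a long non-coding RNA that overlaps Sox1, and at Npas1 (3985 bp, 56.5%), a neuronal transcription factor. The 3 narrowest wide peaks were in Shox2 (4002 bp, 82.3%) and Zfhx3 (4004 bp, 47.8%), both homeobox genes, and at Nat8l (4005 bp, 89.6%), an enzyme of N-acetylaspartate synthesis. At the other limit, overlap of 1 bp, the least JARID2 was found at Nod1, an innate immune receptor, where 13 bp (0.89%) of a 1464-bp region was under JARID2 and 100% under PCL2, and at Lypd1, where 9 bp of 573 were. The Sox1ot region and that at Irs1, an adaptor of the insulin receptor, each held 3 JARID2 peaks.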

How the data were processed

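Chromatin immunoprecipitation and RNA sequencing were done on mouse embryonic stem cells. Per the submitters' processing notes, reads of 62 of the 63 immunoprecipitation samples went through Trimmomatic and Bowtie2 on mm10; the notes of 1 name STAR and HTSeq. The deposited lists give each peak's position and no score; the peak caller, its threshold, the treatment of repeated sequence and any pooling of libraries are matters not given in the sources used here, and all of these set peak width and overlap. Read depth per sample is unknown here.

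Overlaps were computed in Python 3.11.15 (pandas 2.3.3, numpy 2.4.6, scipy 1.17.1, matplotlib 3.10.9), checked on simulated peaks. A gene belonged to a peak when its start in the RefSeq GRCm38 promoter table (17492 genes), or for 4395 genes without one either end, lay in or within 1 kb of it. Of the genes with a narrower shared and no wide peak, 1577 were assigned by start (9.02% of those with one) and 538 by either end (12.2%).

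The 24 deposited RNA count tables carry Ensembl identifiers that the reference does not pair with gene names, so they were not used here, and the planned tests of RNA, with the naming of genes by fold change, could not be made. Genes were named by list instead, and some list members are not reported here. Members and lists were chosen with earlier results of these data known.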

Additional observations from a re-analysis of the deposited data

How the results depend on the processing

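The number of narrower shared peaks (3440) and of genes at them (2115) stayed within 1.5 times under every alternative that was run. The peaks numbered 3423 and 2353 when each protein had to cover 10 or 50% of the SUZ12 peak, 2971 with a limit of 3000 bp, 2992 with JARID2 and PCL2 peaks of 500 bp or more, and 3379 without the 2 arrays, an alternative chosen after seeing the data. The genes ranged from 1510 (50% cover) to 2368 (gene start or end within 5 kb). The share of peaks near a gene start or end (62.6%, 61.0 to 64.2) fell outside that interval under 4 alternatives. It was 65.1% with 50% cover and 60.9% with the 3000 bp limit. With the start or end inside the peak it was 56.7%, and within 5 kb it was 73.1%. The first of these distances can only lower the share and the second can only raise it. All 4 reuse the same peaks, so the interval is no test of the moves. Peak counts could not be recomputed without a replicate, since each list is 1 list per protein. The RNA comparisons and their alternatives were not run. No paired analysis was possible because the lists carry no replicate and the RNA tables were not joined to the peaks. Without scores or coverage, weak and strong peaks cannot be told apart.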

Other observations

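Gene families, grouped by the letters that open their symbols (144 families of 15 genes or more, examined after the lists above), are given here beside the 9.66% of all protein-coding genes; those named were chosen after their values were seen. Synaptotagmins, the calcium sensors of vesicle release, had 10 of 17 genes at narrower shared peaks and none at wide ones, and inward rectifier potassium channels (Kcnj) 8 of 15 and none. The ADAMTS proteases had 11 of 19 and 1, and the GalNAc transferases (Galnt) 9 of 17 and none. Semaphorins, which guide axons, had 9 of 20 and none. Genes with symbols that open with Rgs, for regulator of G protein signalling, had 9 of 23 and none. Rgs7bp and Rgs9bp, named for binding such regulators, were among the 9. Wnt genes had 11 of 19 at narrower shared peaks and 7 at wide ones, and Sox genes 7 and 7 of 19. Olfactory receptors (Olfr) had 1 of 1110 and vomeronasal receptors (Vmn) 0 of 355, and zinc finger genes named Zfp had 17 of 397.

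Outside the arrays and the Hoxc cluster, the runs with 5 or more narrower shared peaks were these: 7 narrower shared peaks among 15 SUZ12 peaks at Hoxb genes, 6 of 6 at Zic2, 6 of 8 at Hand2, 5 of 5 at Wnt10a, 5 of 6 at Pou4f1 and 5 of 6 at Pax2. Per 1000 protein-coding genes, chromosome 18 had 243 regions and chromosome 12 had 224, and chromosome X had 66.3, the lowest of those with any; chromosome Y had none. Chromosome 6 had 202, and 163 outside its array. Another 3 regions were on unplaced contigs.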
